A study of Mus musculus with 10 samples.

Results

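The transcripts of 10 genes of eosinophils, basophils and mast cells were followed in hematopoietic stem and progenitor cells (HSPCs) from mouse bone marrow: Epx, Prg2, Prg3, Cpa3, Ms4a2, Fcer1a, Mcpt8, Gzmb, Hdc and Il5ra. They were chosen by gene symbol, and all 10 were found among the 55573 genes of each count table. The donors were C57BL/6 mice, whose age is labelled as 16 weeks, and their cells were taken 6 weeks after 500 cGy to the whole body. Both groups were irradiated. The Saline group (5 libraries) had subcutaneous saline, and the EGF group (5 libraries) had epidermal growth factor by that route. Marrow that was not irradiated was not analysed here. The gate by which the cells were sorted and the schedule of EGF were not given in the sources used here, nor was the number of mice behind each library. Nothing in the labels says that the libraries of a group came from separate mice, so a p-value reflects only how these libraries differ, part of which may be technical.

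Eosinophils, basophils and mast cells are granulocytes that arise from progenitors in the marrow, and their granule proteins are transcribed early, while the cells are still immature. Eosinophil granules hold cytotoxic cationic proteins and a peroxidase. Basophils and mast cells carry the high-affinity receptor for IgE and store histamine and proteases, among them carboxypeptidase. A bulk level cannot tell fewer cells of a type from less RNA per cell.

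GATA factors are known regulators of these lineages, so the 250 bases before the RefSeq start of each gene were searched for the letters AGATAA or AGATAG and the letters TGATAA or TGATAG, on both strands (RefSeq, GRCm38.p6). Windows were found for 9 of the 10 genes, and 6 of those 9 held a match, against 26.54% of all 32851 windows of that length. Prg2 had no entry in the table. The windows of 2 eosinophil granule genes and 2 mast cell and basophil genes are shown as examples, with the matched letters in capitals, 5′ to 3′ on the strand of the gene. Whether the matches relate to the levels given below was not tested. They lie at chr11:87875537-87875786 (Epx, minus strand), chr2:84987965-84988214 (Prg3, plus strand), chr19:11623720-11623969 (Ms4a2, minus strand) and chr3:20242182-20242431 (Cpa3, minus strand).
Epx: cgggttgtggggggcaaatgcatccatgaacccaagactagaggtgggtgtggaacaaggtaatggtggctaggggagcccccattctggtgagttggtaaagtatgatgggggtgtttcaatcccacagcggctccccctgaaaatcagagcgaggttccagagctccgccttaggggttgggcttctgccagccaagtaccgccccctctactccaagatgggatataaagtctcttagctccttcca
Prg3: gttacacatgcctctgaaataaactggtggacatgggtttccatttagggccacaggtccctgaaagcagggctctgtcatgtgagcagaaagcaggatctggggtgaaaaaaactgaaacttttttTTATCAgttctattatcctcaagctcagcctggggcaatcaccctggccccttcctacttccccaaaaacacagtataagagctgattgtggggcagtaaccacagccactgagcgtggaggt
Ms4a2: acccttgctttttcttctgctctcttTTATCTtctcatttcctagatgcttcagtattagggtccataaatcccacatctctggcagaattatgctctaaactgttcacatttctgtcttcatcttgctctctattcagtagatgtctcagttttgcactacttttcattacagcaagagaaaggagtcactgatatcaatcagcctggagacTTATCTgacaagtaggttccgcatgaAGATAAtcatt
Cpa3: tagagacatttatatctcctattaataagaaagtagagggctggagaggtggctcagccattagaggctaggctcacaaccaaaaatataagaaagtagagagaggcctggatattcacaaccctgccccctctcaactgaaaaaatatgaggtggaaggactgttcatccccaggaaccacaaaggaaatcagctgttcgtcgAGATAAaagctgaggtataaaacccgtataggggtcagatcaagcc
Ms4a2 held 3 matches, whose first letters lay 224, 37 and 11 bases before the start. Cpa3 held 1 at 46 bases and Prg3 held 1 at 123 bases before the start, and the Epx window held none. Il5ra, Fcer1a and Hdc held 1 each, and Mcpt8 and Gzmb none. The C/EBP letters TTGCNNAA, searched on both strands, were in 1 of the 9 windows, that of Fcer1a, and in 9.56% of all windows. A match describes letters in these windows and shows no binding.

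Total counts ranged from 6805106 to 8370820 per library. A count was seen for 18734 to 20046 genes in each of 9 libraries and for 12731 genes in EGF replicate 5, which stood apart, and results are given with and without it. The HSPC markers listed for this tissue (Kit, Cd34, Flt3 and others, 12 genes) were all detected, with a summed level of 1543 to 1774 CPM (a gene's counts scaled to a common library size, with TMM factors) in Saline and 1713 to 1976 CPM in EGF. Of 59 further genes of eosinophil, basophil and mast cell biology, 53 had a count. The defining proteases of tissue mast cells were at or near 0: Mcpt1, Mcpt2, Mcpt9 and the tryptase Tpsab1 had no count in any library, and Mcpt4, Cma1 and Tpsb2 had at most 1, 2 and 4 counts. The mast cell receptor Mrgprb2 was also at 0. Ccr3, the eotaxin receptor of mature eosinophils, had 0 to 6 counts. Cpa3, Hdc and both IgE receptor chains are known from basophils too, so no mast cell is named as their source below.

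None of the 10 differences passed the main test: edgeR (quasi-likelihood, p-values adjusted by Benjamini-Hochberg over 12874 genes) put 0 of the 10 genes under 0.05. All 10 passed the filter on low counts. In the same test 1 gene of all was higher with EGF (0.00777%) and 0 were lower (0.0%). Before adjustment, 2 of the 10 had an edgeR p under 0.05 in the lower direction, Epx and Prg2, and 0 in the higher, where 2.73% of all tested genes did so in the lower and 6.14% in the higher direction. DESeq2 called 1 of the 10, Epx, as lower, where it called 0.155% of all genes lower and 0.28% higher; it gave no adjusted p for 4 of the 10. The groups did not overlap for 0 of the 10 genes, against 3.27% of all tested genes. The log2 fold change was below 0 for the 3 eosinophil granule genes and Il5ra, and above 0 for the 6 others, with a median of 0.22 over the 10 beside -0.01 over all tested genes. That median lies between 2 sets with values of unlike sign, so the sets are described one by one.

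**Figure D1:**
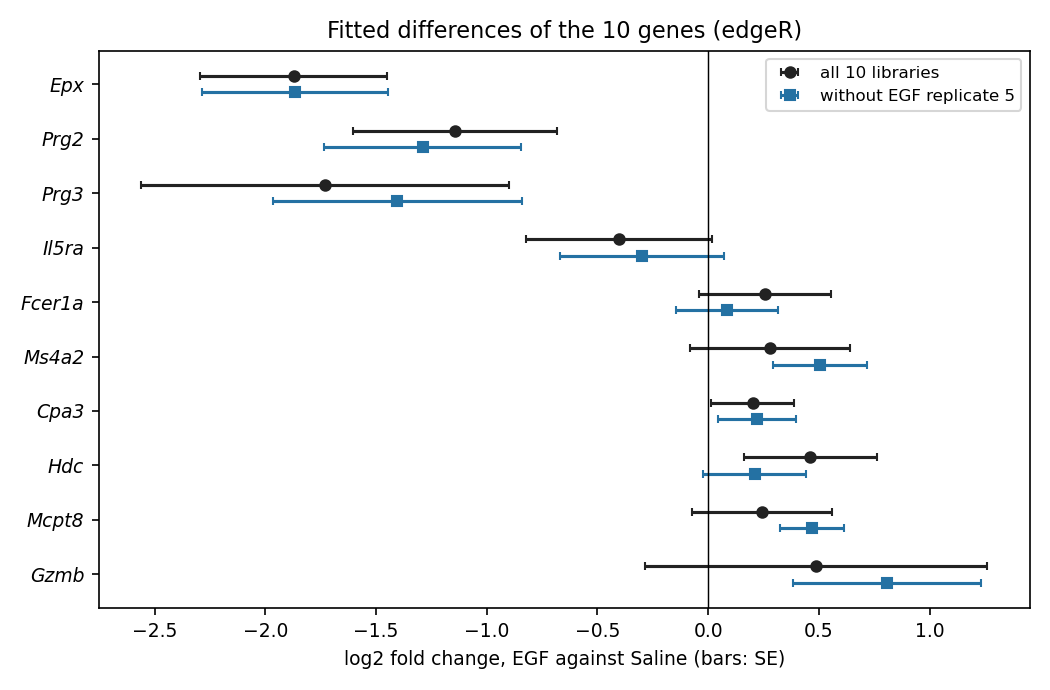
Log2 fold change of EGF against Saline for the 10 genes, fitted by edgeR, with bars of 1 standard error, for all 10 libraries (circles) and without EGF replicate 5 (squares). Epx, Prg2 and Prg3 lie between -1.87 and -1.14 with all libraries, and the 6 IgE receptor and mast cell and basophil granule genes between 0.20 and 0.49.

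Epx encodes eosinophil peroxidase, a haem enzyme of the granule matrix that makes hypohalous acids. The gene spans positions 87864000 to 87875536 of chromosome 11 in GRCm38 (minus strand). Its exons are free of overlap with other annotated genes, as are those of the 9 other genes. Its level in Saline replicates 1 to 5 was 11.6, 54.5, 28.8, 75.4 and 70.2 CPM. In EGF replicates 1 to 5 it was 14.6, 10.01, 12.1, 15.7 and 13.1 CPM. Saline replicates 2 to 5 lay above all EGF libraries, while Saline replicate 1 lay among them, so the groups overlapped through that 1 library. The means were 48.1 ± 27.3 CPM in Saline and 13.1 ± 2.23 CPM in EGF (SD, n = 5 each). The log2 fold change was -1.87 (SE 0.42; edgeR, unadjusted p = 0.00095, adjusted p = 0.552), that is 3.66-fold lower with EGF, and this difference did not pass.

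DESeq2 gave the same size of difference for Epx and called it (adjusted p = 0.00583; 0.0136 when every gene with a count was kept, a fit in which 0.0557% of all genes were called lower). That call was not kept without Saline replicate 4 (DESeq2 adjusted p = 0.139) or Saline replicate 5 (0.0992), DESeq2 gave no adjusted p without Saline replicate 2, and it called Epx in the 7 other fits that each left out 1 library. Without Saline replicate 1 the log2 fold change by edgeR was -2.12 (adjusted p = 0.0884). Over all edgeR fits that left out 1 library it ranged from -2.12 to -1.65, with an adjusted p from 0.0884 to 0.833. Without EGF replicate 5 it was -1.87 (SE 0.42; edgeR adjusted p = 0.136).

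Prg2 encodes major basic protein, the chief protein of the crystalline core of eosinophil granules, and lies on chromosome 2 from 84980461 to 84983632. Its level was 29.2, 126, 70.7, 243 and 177 CPM in Saline replicates 1 to 5 and 41.2, 41.5, 53.5, 74.1 and 81.5 CPM in EGF replicates 1 to 5. Saline replicate 1 was the lowest of all 10 libraries, Saline replicate 3 lay within the EGF range, and 3 Saline libraries lay above it. The means were 129 ± 84.6 CPM and 58.4 ± 18.6 CPM (SD, n = 5 each), with a log2 fold change of -1.14 (SE 0.46; edgeR adjusted p = 0.552). With 1 library left out the value ranged from -1.40, without Saline replicate 1, to -0.79, without Saline replicate 4. Without Saline replicate 1 DESeq2 called 2 of the 10 genes lower, Epx and Prg2 (adjusted p = 0.025 for Prg2), where it called 0.237% of all genes lower.

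Prg3, a paralog of Prg2 that encodes another major basic protein, starts 4582 bases beyond Prg2 on the same strand with no coding gene between. It was much less sampled, with 6, 42, 41, 78 and 69 counts in Saline replicates 1 to 5 and 15, 9, 14, 35 and 0 counts in EGF replicates 1 to 5. The zero in EGF replicate 5 allows a level of up to 0.419 CPM, by counting error only. Again Saline replicates 2 to 5 lay above all EGF libraries, and Saline replicate 1 lay among them. The level was 6.13 ± 3.84 CPM in Saline and 1.83 ± 1.5 CPM in EGF (SD, n = 5 each), with a log2 fold change of -1.73 (SE 0.83; edgeR adjusted p = 0.552), and -1.40 (SE 0.56) without EGF replicate 5.

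Il5ra encodes the alpha chain of the receptor for interleukin-5, the cytokine that drives the growth of eosinophil precursors, and is used as a marker of commitment to that lineage. It had 20, 22, 12, 26 and 24 counts in Saline replicates 1 to 5, and 13, 14, 27, 13 and 10 counts in EGF replicates 1 to 5. The level was 2.69 ± 0.797 CPM in Saline and 2.04 ± 1.02 CPM in EGF (SD, n = 5 each), with a log2 fold change of -0.40 (SE 0.42; edgeR adjusted p = 0.739). Saline replicate 1, the Saline library with the lowest Prg2 and Prg3, lay inside the Saline range for Il5ra. EGF replicate 3 had the highest Il5ra of all libraries, at 3.83 CPM, while its Epx stood at 12.1 CPM. The 6 B and plasma cell genes, all detected, summed to 600 to 1345 CPM in Saline and 106 to 810 CPM in EGF. The part of cells other than eosinophil precursors in the Il5ra counts was not tested. Within Saline the granule genes shared one order of libraries (1, 3, 2, 5 and 4 from lowest to highest), and Il5ra differed from it in the order of replicates 1 and 3, which had 20 and 12 counts. Within EGF the 3 granule genes shared no order.

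**Figure D2:**
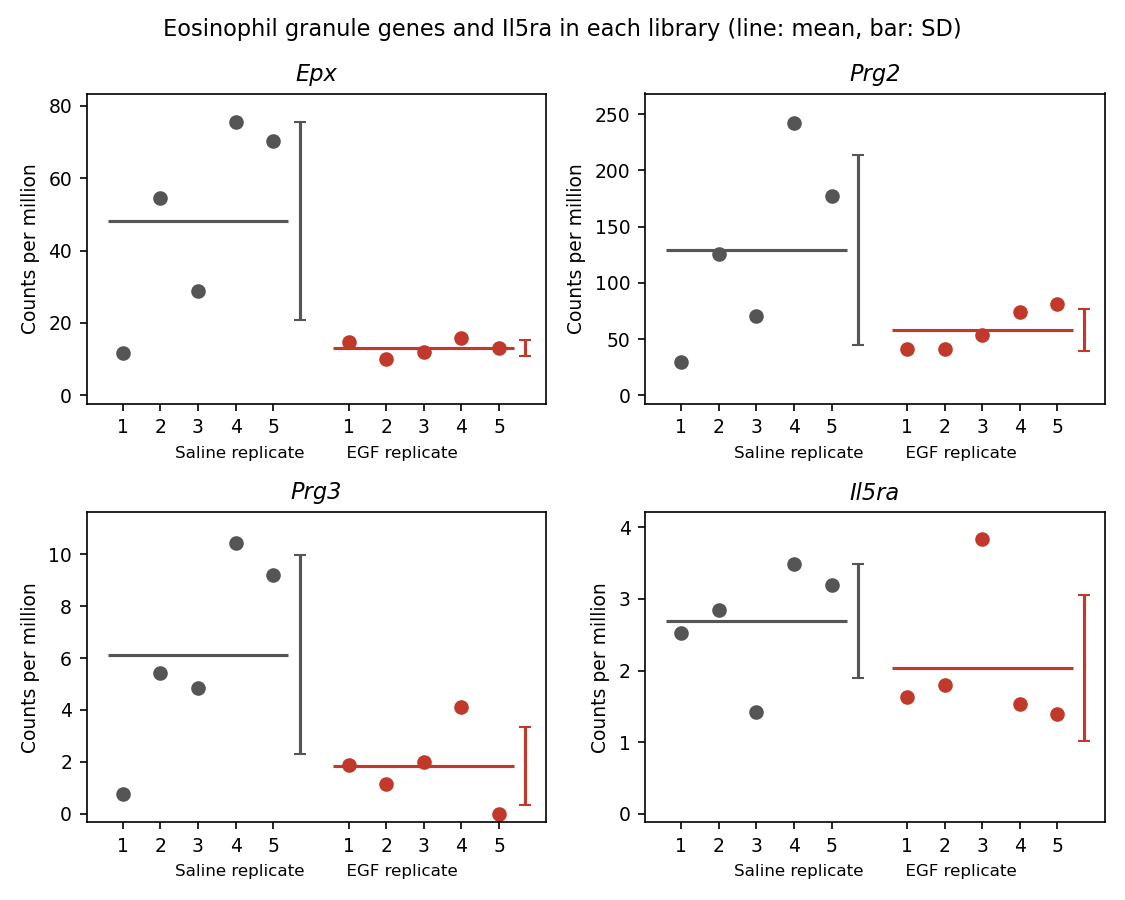
CPM (vertical axes) of Epx, Prg2, Prg3 and Il5ra in each Saline and EGF library (horizontal axes, replicate number), with the mean as a line and the SD as a bar. Saline replicate 1 sits with the EGF libraries for the 3 granule genes, and the other Saline libraries are spread up to 75.4, 243 and 10.4 CPM.

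The spread of the granule genes between Saline libraries was wide. From the lowest to the highest Saline library Epx differed 6.48-fold, Prg2 8.30-fold and Prg3 13.8-fold. The SD of log2 CPM (prior count of 2) over the Saline libraries was 1.12 for Epx, 1.20 for Prg2 and 1.36 for Prg3, beside a median of 0.18 over all tested genes. Among genes within 2-fold of the same Saline mean, these SDs were above those of 99.3%, 99.6% and 98.6% of genes. For Il5ra the SD was 0.46, above 55.9% of genes of like level. Over EGF replicates 1 to 4 the SDs were smaller, 0.29 for Epx, 0.40 for Prg2 and 0.67 for Prg3, beside a median of 0.20 over all tested genes. They too were above those of most genes within 2-fold of the same Saline mean, 93.2%, 98.6% and 91.5%. Those genes were not matched on their EGF level, and the 3 granule genes had lower means in EGF than in Saline. With EGF replicate 5 kept, the SDs over EGF were 0.25 for Epx, 0.46 for Prg2 and 1.54 for Prg3, beside a median of 0.49. The SD of Prg3 was then above its Saline value.

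The counts of Prg2 to those of Epx stood in a ratio of 2.51, 2.30, 2.46, 3.22 and 2.53 in Saline replicates 1 to 5. In EGF replicates 1 to 5 the ratio was 2.82, 4.14, 4.44, 4.71 and 6.21. Saline libraries that differed 8.30-fold in Prg2 thus kept the 2 genes in nearly one proportion, and 4 of the 5 EGF libraries lay above all of them. This ratio was chosen after the values were seen and was not tested.

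Primary granule genes of neutrophils were lowest in Saline replicate 1 and highest in Saline replicate 4, like the eosinophil granule genes in Saline. The 4 primary granule genes Mpo, Elane, Prtn3 and Ctsg, which encode myeloperoxidase and serine proteases, had a summed level of 1644 CPM in Saline replicate 1, 2962 to 5383 CPM in Saline replicates 2 to 5, and 1703 to 2555 CPM in EGF. Their log2 fold changes were -0.63 (SE 0.26) for Mpo, -0.91 (SE 0.30) for Elane, -1.11 (SE 0.27) for Prtn3 and -0.81 (SE 0.24) for Ctsg, each with an edgeR adjusted p of 0.552. DESeq2 called 1 of the 4, Prtn3 (adjusted p = 0.0195), where it called 0.155% of all genes lower. With no filter it did not call Prtn3 (adjusted p = 0.0714), and it kept the call in 7 of the 10 fits that left out 1 library. The other 6 neutrophil genes of the list also had their lowest Saline sum in replicate 1 and their highest in replicate 4. Their sum was 7.21, 39.2, 36.6, 380 and 122 CPM in Saline replicates 1 to 5. In EGF replicates 1 to 5 it took another course, at 47.6, 91.0, 1.99, 7.05 and 514 CPM. Of the whole list of 10 neutrophil genes, all detected, 5 had a log2 fold change below 0 and 5 above with all libraries, and 10 below 0 without EGF replicate 5; its sum ran from 1652 to 5763 CPM in Saline and from 1751 to 2848 CPM in EGF. The 6 monocyte genes, also all detected, summed to 129 to 387 CPM in Saline, lowest in replicate 1 and highest in replicate 4, and to 189 to 276 CPM in EGF. The part of these cells in the differences of Epx, Prg2 and Prg3 was not tested. Epx and Mpo are neighbours on chromosome 11, 59586 bases apart, with 2 coding genes between them, Lpo and Mks1.

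**Figure D3:**
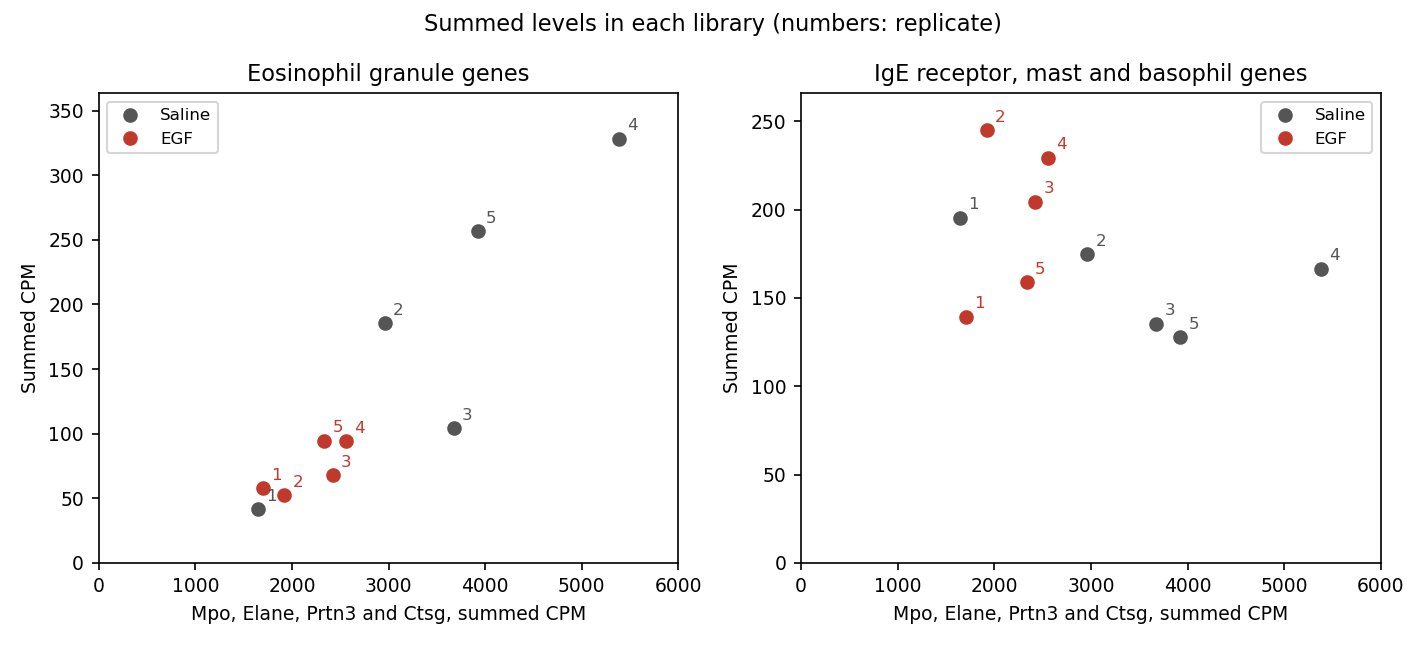
Summed CPM of Epx, Prg2 and Prg3 (left) and of the 6 IgE receptor and mast cell and basophil genes (right) against the summed CPM of 4 neutrophil primary granule genes, 1 point per library with its replicate number. On the left Saline replicate 1 lies beside EGF replicates 1 and 2 and Saline replicates 2, 4 and 5 lie highest; on the right the libraries stand in another order.

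Ms4a2 encodes the beta chain of the high-affinity IgE receptor, which amplifies its signal, and lies on chromosome 19 from 11615523 to 11623719. Its level was 47.0, 36.7, 26.8, 30.0 and 20.5 CPM in Saline replicates 1 to 5 and 30.9, 53.9, 46.6, 51.8 and 12.0 CPM in EGF replicates 1 to 5. Saline replicate 1, the lowest Saline library for the eosinophil granule genes, was the highest one here. EGF replicate 5 was the lowest of all 10 libraries. The means were 32.2 ± 10.1 CPM and 39.0 ± 17.6 CPM (SD, n = 5 each), with a log2 fold change of 0.28 (SE 0.36; edgeR adjusted p = 0.795). Without EGF replicate 5 it was 0.51 (SE 0.21; edgeR, unadjusted p = 0.0328, adjusted p = 0.276), and without EGF replicate 2 it was 0.13 (adjusted p = 0.891).

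Fcer1a encodes the alpha chain of the same receptor, which binds IgE, and was the less sampled of the pair. It had 66, 85, 56, 57 and 40 counts in Saline replicates 1 to 5 and 46, 72, 54, 88 and 97 counts in EGF replicates 1 to 5. The level was 7.78 ± 2.12 CPM in Saline and 9.31 ± 2.93 CPM in EGF (SD, n = 5 each; log2 fold change 0.26, SE 0.30, edgeR adjusted p = 0.767), and the groups overlapped. The counts of Ms4a2 to those of Fcer1a stood between 3.34 and 5.64 in the Saline libraries and between 5.01 and 6.07 in EGF replicates 1 to 4, but at 0.887 in EGF replicate 5. In that library the 2 chains of 1 receptor thus parted, with Fcer1a at its highest and Ms4a2 at its lowest.

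Cpa3 encodes carboxypeptidase A3, a granule enzyme of mast cells that basophils and some early progenitors also transcribe. Its level was 52.3, 43.9, 31.9, 43.7 and 37.8 CPM in Saline replicates 1 to 5 and 36.0, 69.7, 46.0, 43.8 and 45.3 CPM in EGF replicates 1 to 5. EGF replicate 2 alone lay above the Saline range. The means were 41.9 ± 7.65 and 48.2 ± 12.7 CPM (SD, n = 5 each), with a log2 fold change of 0.20 (SE 0.19; edgeR adjusted p = 0.711), and 0.03 without EGF replicate 2.

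Hdc encodes histidine decarboxylase, the enzyme that makes histamine. It stood at 32.9, 32.7, 24.3, 40.4 and 27.3 CPM in Saline replicates 1 to 5 and at 19.0, 31.5, 43.6, 51.6 and 71.4 CPM in EGF replicates 1 to 5. The EGF libraries held both the lowest and the 3 highest values of all 10. The log2 fold change was 0.46 (SE 0.30; edgeR adjusted p = 0.613), 0.65 without EGF replicate 1 and 0.21 without EGF replicate 5.

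Mcpt8 encodes a serine protease that is the classic marker of mouse basophils, and lies on chromosome 14 from 56082166 to 56085273. Its level was 52.7, 48.1, 43.7, 43.0 and 36.3 CPM in Saline replicates 1 to 5 and 45.5, 78.6, 58.0, 66.1 and 16.6 CPM in EGF replicates 1 to 5. EGF replicates 2, 3 and 4 lay above all Saline libraries, EGF replicate 1 among them and EGF replicate 5 below them. The means were 44.8 ± 6.11 and 53.0 ± 23.6 CPM (SD, n = 5 each), with a log2 fold change of 0.24 (SE 0.32; edgeR adjusted p = 0.796). Without EGF replicate 5 it was 0.47 (SE 0.14; edgeR, unadjusted p = 0.00596, adjusted p = 0.18), and DESeq2 then called it (adjusted p = 0.0495). Without EGF replicate 2 it was 0.06 (edgeR adjusted p = 0.947).

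Without EGF replicate 5, edgeR put 0 of the 10 genes under an adjusted p of 0.05, where it did so for 0.0611% of the 13104 genes tested. Before adjustment, 3 of the 10 had a p under 0.05 in the lower direction (Epx, Prg2 and Prg3) and 2 in the higher (Ms4a2 and Mcpt8), beside 7.39% and 8.38% of all genes. DESeq2 called Epx lower and Mcpt8 higher in those 9 libraries, where it called 0.992% of all genes lower and 1.4% higher. With genes of low count also kept, edgeR called 3 of the 10 in those libraries, where it called 0.439% of all genes lower and 0.499% higher. They were Epx (adjusted p = 0.000231) and Prg2 (0.016) as lower and Mcpt8 (0.0475) as higher. That fit was chosen after the values were seen.

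Gzmb encodes granzyme B, a protease that activates caspases in target cells and is transcribed in cytotoxic lymphocytes as well as in basophils and mast cells. It lies 173564 bases from Mcpt8 on chromosome 14, with 7 coding genes between them, Ctsg and 6 granzyme genes. It had 17, 18, 18, 14 and 4 counts in Saline replicates 1 to 5 and 19, 15, 19, 48 and 0 counts in EGF replicates 1 to 5. The zero allows up to 0.419 CPM in EGF replicate 5, by counting error only. The log2 fold change of 0.49 (SE 0.77; edgeR adjusted p = 0.827) rested on EGF replicate 4, at 5.64 CPM: without it the value was -0.04. The 12 NK and T cell genes were all detected, with a summed level of 53.7 to 80.1 CPM in Saline and 37.8 to 88.5 CPM in EGF, and 10 of them were at 0 in EGF replicate 5. EGF replicate 4, with the highest Gzmb, had 51.9 CPM of them.

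**Figure D4:**
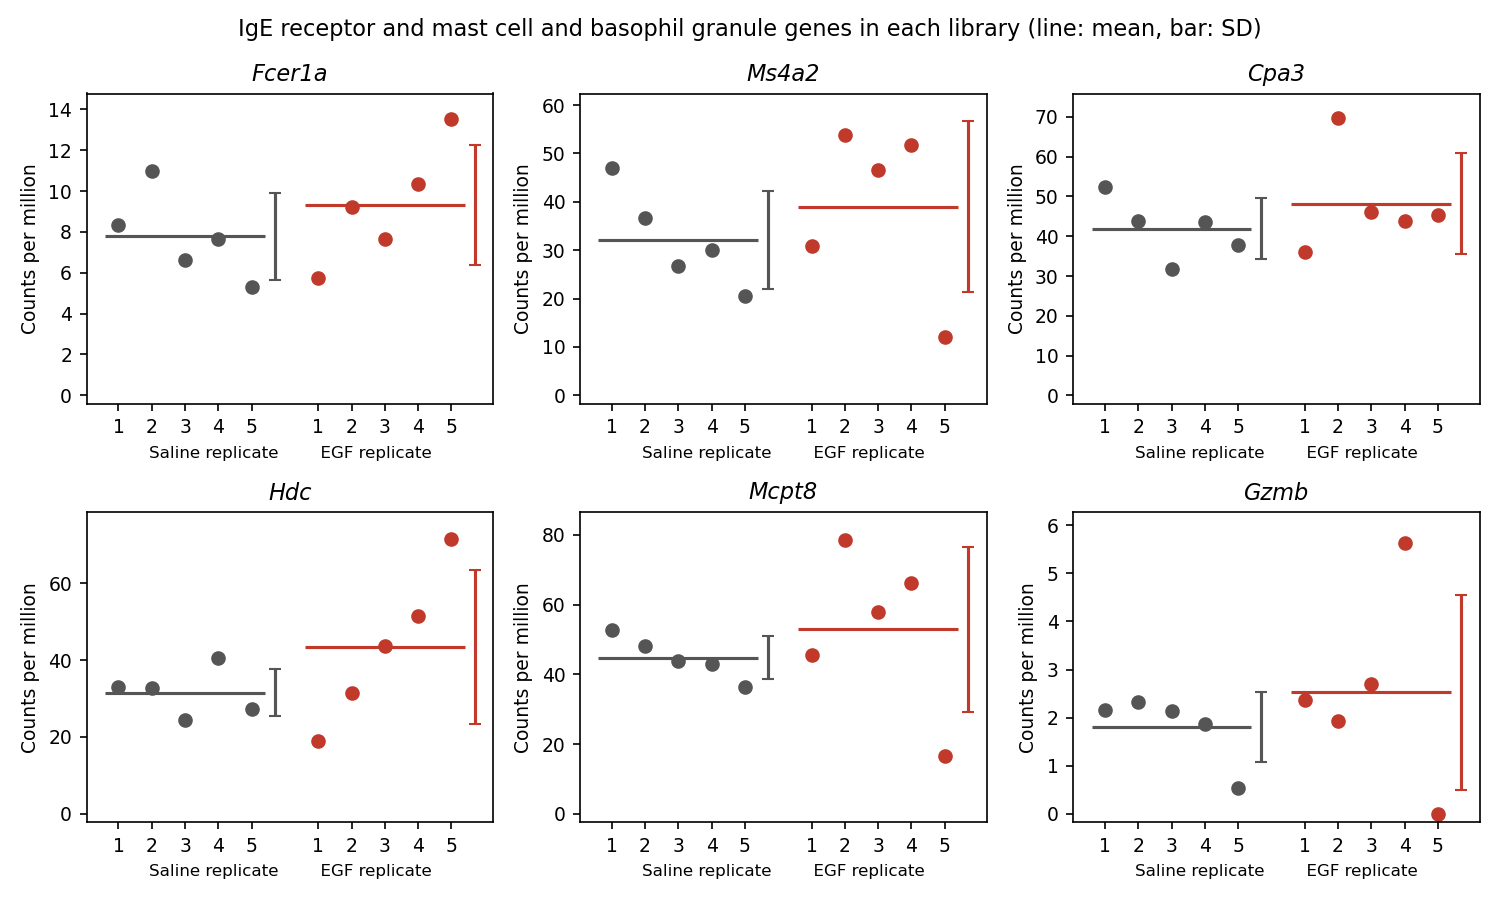
CPM (vertical axes) of Fcer1a, Ms4a2, Cpa3, Hdc, Mcpt8 and Gzmb in each Saline and EGF library (horizontal axes, replicate number), with the mean as a line and the SD as a bar. EGF replicate 5 is the lowest library for Ms4a2, Mcpt8 and Gzmb and the highest for Fcer1a and Hdc.

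Scaled per kb of the longest coding transcript, the order of the Saline levels was Prg2 (154 ± 101 CPM per kb), Mcpt8 (53.6 ± 7.31), Cpa3 (28.9 ± 5.28), Epx (17.9 ± 10.1), Ms4a2 (13.5 ± 4.24), Hdc (13.2 ± 2.59), Fcer1a (7.80 ± 2.12), Prg3 (6.46 ± 4.04), Gzmb (1.26 ± 0.507) and Il5ra (0.754 ± 0.223; SD, n = 5 each). The ranges of neighbours in this order overlapped, except that all Saline libraries of Mcpt8 lay above all those of Cpa3. Prg2 had the highest mean in both groups. In EGF that order of the means rested on replicate 5: without it Mcpt8 was first, at 74.2 ± 16.6 CPM per kb, and Prg2 next, at 62.8 ± 18.5 (SD, n = 4 each). Mcpt8 lay above Prg2 in 3 of the 5 EGF libraries and in 1 of the 5 Saline libraries. In EGF, Epx was the seventh of the 10, at 4.88 ± 0.83 CPM per kb, behind Hdc, Ms4a2 and Fcer1a.

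**Figure D5:**
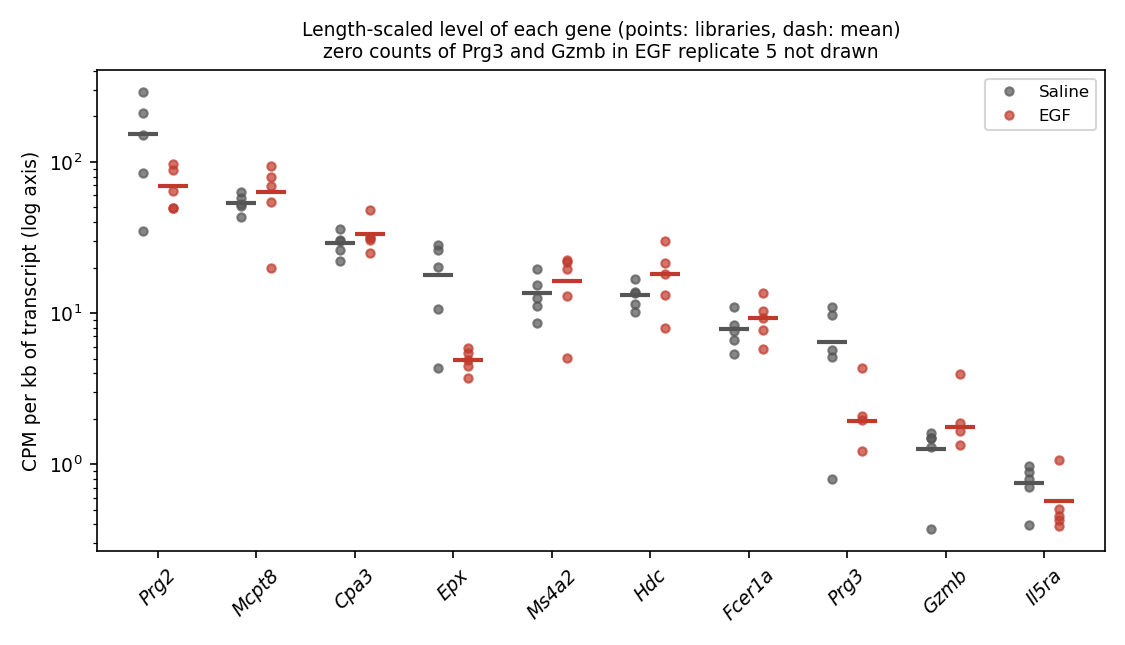
CPM per kb of the longest coding transcript (vertical log axis) of the 10 genes, ordered by the Saline mean, with 1 point per library and the mean as a dash; 2 zeros in EGF replicate 5 are not drawn. The mean of Prg2 is 154 CPM per kb in Saline and 69.7 in EGF, where the libraries of Prg2 and Mcpt8 overlap, and Il5ra has the lowest means, 0.754 and 0.569.

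Of the 59 further genes of these lineages, 44 were tested, and edgeR passed 0 of them as higher and 0 as lower. Their log2 fold change was above 0 for 24 and below 0 for 20, with a median of 0.10 beside -0.01 over all tested genes. Without EGF replicate 5, 45 were tested, 33 of them above 0, and 1 passed, the chemokine gene Ccl3 (log2 fold change 0.86, SE 0.12, edgeR adjusted p = 0.0248). In that fit 0.0611% of all tested genes passed, in either direction. With all libraries Ccl3 stood at 47.8 ± 4.37 CPM in EGF against 26.8 ± 4.71 in Saline (SD, n = 5 each; edgeR adjusted p = 0.402; DESeq2 adjusted p = 4.15e-05).

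The next in the higher direction, by p, were Csf1, the macrophage growth factor, Hgf, hepatocyte growth factor, which basophils also make, and Il1rl1, the interleukin-33 receptor ST2 of basophils and mast cells. Csf1 stood at 37.5 ± 12.3 against 20.2 ± 4.20 CPM (SD, n = 5 each; log2 fold change 0.89, SE 0.23, edgeR adjusted p = 0.552), with 5 of 5 EGF libraries above all Saline libraries. It was called by DESeq2 (adjusted p = 0.049), which called 0.28% of all genes higher. DESeq2 did not call Csf1 with no filter (adjusted p = 0.122), and of the 10 fits that left out 1 library it called Csf1 in 4, with adjusted p-values up to 0.355. Hgf stood at 39.1 ± 4.62 against 29.6 ± 2.80 CPM, also with 5 of 5 above (log2 fold change 0.40, SE 0.12, edgeR adjusted p = 0.552). Groups that did not overlap, in either direction, were seen for 3.27% of all tested genes. Csf1 and Hgf were named by their small p, a choice that favours such groups. Il1rl1 stood at 10.6, 17.3, 20.3, 20.4 and 75.1 CPM in EGF replicates 1 to 5 and at 9.83 to 12.7 CPM in Saline. Its log2 fold change was 1.34 (SE 0.46; edgeR adjusted p = 0.552) with all libraries and 0.60 (SE 0.19; adjusted p = 0.191) without EGF replicate 5.

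In the lower direction the first by p were Ms4a3, Ear1, Csf2rb and Cebpe. Ms4a3, a membrane protein gene of granulocyte and monocyte progenitors that lies 5776 bases from Ms4a2 on the same strand, had a log2 fold change of the other sign. Its level was 23.8, 36.8, 48.3, 73.4 and 42.3 CPM in Saline replicates 1 to 5 and 19.4 to 25.3 CPM in EGF (log2 fold change -0.97, SE 0.25, edgeR adjusted p = 0.552). Saline replicates 2 to 5 lay above all EGF libraries and Saline replicate 1 among them, as for Epx. Cebpe, a transcription factor of granule maturation in neutrophils and eosinophils, stood at 0.506 CPM in Saline replicate 1, at 3.36 to 8.71 CPM in the other Saline libraries and at 0.837 to 2.94 CPM in EGF (log2 fold change -1.32, SE 0.62, edgeR adjusted p = 0.552). Not every listed gene known from eosinophils was lower. Siglecf and Alox15, named after their values were seen, had log2 fold changes of 0.89 and 0.98 (edgeR adjusted p = 0.552 each). Siglecf had 47 to 86 counts in Saline and 58 to 272 in EGF, and Alox15 had 29 to 53 and 45 to 153.

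Ear1 belongs to the eosinophil-associated ribonucleases, which are stored in the granules. It had 0, 33, 32, 98 and 114 counts in Saline replicates 1 to 5 and 1, 4, 1, 18 and 2 counts in EGF replicates 1 to 5 (log2 fold change -3.45, SE 1.12, edgeR adjusted p = 0.552). Without EGF replicate 4 the log2 fold change was -4.69 (edgeR adjusted p = 0.621). Its relatives Ear2 and Ear6, named after their values were seen, had 1 count each in Saline replicate 1, 35 and 77 in replicate 2, 13 and 54 in replicate 3, 79 and 142 in replicate 4, and 75 and 68 in replicate 5. In EGF replicates 1 to 4 Ear2 had 1 to 10 counts and Ear6 2 to 10, while EGF replicate 5 had 0 of Ear2 and 91 of Ear6. Members of this family are near copies, and how reads that fit several of them were counted is not given in the sources used here, so single members are uncertain. Csf2rb, the common beta chain of the receptors for interleukin-3, interleukin-5 and GM-CSF, stood at 66.8 ± 5.09 CPM in EGF and 77.8 ± 9 CPM in Saline (SD, n = 5 each), and its log2 fold change was -0.22 (SE 0.10; edgeR adjusted p = 0.552).

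Among all tested genes, those whose level followed the mean profile of the 6 IgE receptor and mast cell and basophil genes most closely over the 10 libraries were Prss34 (Pearson r = 0.94), Csf2rb2 (0.88), Calr3 (0.86), Tanc1 (0.85) and Slc2a4rg-ps (0.85). Prss34 is a protease of basophils and Csf2rb2 a beta chain of the interleukin-3 receptor of mice. Slc18a2 and Cd200r3, also of the list of related genes and looked up after their values were seen, ranked 251 (r = 0.59) and 429 (r = 0.54). Prss34 stood at 113 ± 32.2 CPM in EGF and 87.5 ± 20.6 CPM in Saline (SD, n = 5 each), and its log2 fold change was 0.38 (SE 0.21; edgeR adjusted p = 0.584). Without EGF replicate 5 Prss34 was second of all, with r = 0.94 over 9 libraries, behind Prdm2 (0.94). Pard3b, Calr3 and Igf1r came next, so Csf2rb2, Tanc1 and Slc2a4rg-ps were no longer among the first 5. Cd200r3 then ranked 50 (r = 0.84) and Slc18a2 273 (r = 0.72). For the mean profile of Epx, Prg2, Prg3 and Il5ra the closest were Gpi1 (r = 0.95), Snord15a (0.94), Ethe1 (0.93), Asah1 (0.93) and Lta4h (0.93), and Gpi1 and Asah1 were again among the first 5 without EGF replicate 5. The neutrophil genes Prtn3, Elane, Ctsg and Mpo, looked up after their values were seen, ranked 9, 12, 17 and 23 there. In the same look-up Ear1 ranked 11 (r = 0.87), Ms4a3 45 and Cebpe 67. Cd200r3, Slc18a2 and Prss34 ranked 5906, 7394 and 10898. These r values describe 10 libraries of 2 groups that share depth and preparation, and no p is given.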

How the data were processed

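RNA of bone marrow HSPCs was sequenced on a NextSeq500 after rRNA depletion, per the labels' protocols, in 5 Saline and 5 EGF libraries. The authors deposited whole-number read counts per gene, made with bcl2fastq 2.17 and STAR on GRCm38 (also given as mm10), per the submitters' processing notes. The counter, its strand setting and the annotation release were not given in the sources used here, so reads of antisense partners and near copies may be shared. Gene positions came from GENCODE M21.

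EGF was tested against Saline on all 10 libraries with edgeR 4.0.16 (R 4.3.3) quasi-likelihood tests, TMM factors and filterByExpr (minimum count 10), with Benjamini-Hochberg adjustment over all tested genes and a threshold of 0.05. The procedure was tested on simulated data that held no library with few detected genes, so a library like EGF replicate 5 was not covered. Alternatives used DESeq2 1.42.0, limma 3.58.1, other scalings and filters, a replicate block, and each library left out in turn. An SE beside an edgeR log2 fold change is the size of that change divided by the square root of its F statistic. A floor is 3 counts. Levels per kb use the longest coding transcript.

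The genes and lists were chosen with earlier results of these data known. Named beside the 10 genes were, of 59 related genes, those that passed edgeR and the 4 of smallest p in each direction, and the 5 genes closest to each mean profile by Pearson r of log2 CPM. Others are marked as chosen after their values were seen.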

Additional observations from a re-analysis of the deposited data

Results flagged for a closer look

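In 54 groups of 5 values examined, 8 held a library whose gap to its nearest neighbour exceeded Dixon's limit (0.71 of the range for 5 samples). That limit marks about 1 group in 20 where values are independent and normally distributed. These groups share libraries and some genes were named by their values, so the 8 cannot be set against that rate. Il5ra stood at 3.83 CPM in EGF replicate 3, beside 1.40 to 1.80 CPM in the other EGF libraries. Gzmb stood at 0.533 CPM in Saline replicate 5, beside 1.88 to 2.33 CPM in the other Saline libraries. Il1rl1 stood at 75.1 CPM in EGF replicate 5, beside 10.6 to 20.4 CPM. Ear1 stood at 2.11 CPM in EGF replicate 4, beside 0.125 to 0.514 CPM. The summed HSPC markers stood at 1976 CPM in EGF replicate 1, beside 1713 to 1769 CPM. EGF replicate 5 had a count for 12731 genes, beside 18734 to 20046 in the other EGF libraries. The total was 8370820 counts in Saline replicate 3, beside 7582421 to 7732068 in the other Saline libraries, and 6805106 in EGF replicate 3, beside 7781772 to 8107909 in the other EGF libraries.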

How the results depend on the processing

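Over all genes, edgeR called 1 higher and 0 lower. DESeq2 called 36 higher and 20 lower, or 12 and 15 with no filter. With quality weights for the libraries, limma-voom gave 8 and 4. Scaling by library size only gave 0 higher. Leaving out EGF replicate 5 and the filter together gave 134 and 118. With 1 library left out, edgeR called 0 to 4 higher and 0 to 4 lower, most without EGF replicate 5, and DESeq2 9 to 183 higher and 5 to 130 lower. Of the 10 genes, edgeR called 0 in each fit that left out 1 library, DESeq2 called 1 with all libraries, 1 with no filter and 0 to 2 with 1 library left out, and edgeR called 3 without EGF replicate 5 and the filter. The sign turned for Hdc by limma-voom with quality weights (-0.0503) and for Gzmb by limma-voom (-0.21) and without EGF replicate 4 (-0.042 by edgeR; -0.0383 by DESeq2, whose highest value with 1 library left out was 0.813, without EGF replicate 5). The cause was not tested. The numbers of the labels did not pair the libraries: same-numbered libraries correlated between -0.0782 and 0.0192, and 1 of 5 Saline libraries correlated best with its own number. A fit with the replicate block called 0 genes higher and 0 of the 10 genes. The DESeq2 fits with 1 library left out, DESeq2 with no filter, and the fit without EGF replicate 5 and the filter were chosen after seeing the data. Depth limits Prg3, Il5ra and Gzmb, with at most 78, 27 and 48 counts in a library.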
